A study of Mus musculus with 22 samples.

Results

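The 6 Dlx homeobox genes, Dlx1 to Dlx6, were followed through CUT&RUN profiles of Polycomb proteins and histone marks in mouse ESC (embryonic stem cells) and in the neural progenitors derived from them (NPC). CUT&RUN cuts and sequences DNA next to an antibody-bound protein. The members were taken by gene symbol, 6 of the 24467 transcription start site windows in the count table, and each window was 5000 bp long. All cells were C57BL/6 with the genotype given as untagged, Tir1, and all were labelled untreated. ESC were kept in serum-free medium with LIF (100 U/mL), CHIR99021 (3 µM) and PD0325901 (1 µM), and NPC were made from them with bFGF (10 ng/mL) for 72 h and then the Hedgehog pathway agonist SAG (500 nM) for 48 h. Each cell type had 2 libraries for each of 5 antibodies, which the series calls biological replicates, and 1 library with a non-specific IgG, 22 libraries in all. The p-values below measure only the spread between these libraries.

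Dlx genes are the vertebrate relatives of Drosophila Distal-less and encode homeodomain transcription factors. They lie in linked pairs that face each other, Dlx1 with Dlx2, Dlx3 with Dlx4 and Dlx5 with Dlx6, and the partners of a pair share enhancers. Dlx1, Dlx2, Dlx5 and Dlx6 direct the formation of GABAergic (inhibitory) neurons in the ventral forebrain, and the family patterns the jaws. Dlx3 is also needed in placenta, skin and hair, and Dlx5 and Dlx6 in limb and bone. Polycomb repressive complex 2 (PRC2) places trimethylation on lysine 27 of histone H3 (H3K27me3) at silent developmental genes. SUZ12 is a core subunit of PRC2, while JARID2 and MTF2 mark alternative accessory forms of it. H3K4me3 marks active promoters and, beside H3K27me3, promoters of silent developmental genes.

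The start sites of Dlx1 (chr2:71526945-71531944, plus strand) and Dlx2 (chr2:71544255-71549254, minus strand) lay 17310 bp apart in mm10. Dlx3 (chr11:95117617-95122616, plus strand) and Dlx4 (chr11:95143302-95148301, minus strand) were 25685 bp apart. Dlx6 (chr6:6860834-6865833, plus strand) and Dlx5 (chr6:6879569-6884568, minus strand) were 18735 bp apart. Each window was centred on the start of 1 RefSeq transcript and so held its promoter and the first part of the gene. The Dlx4 window overlapped that of the long noncoding RNA Dlx4os, and the Dlx6 window overlapped that of Dlx6os2, so these neighbours could share reads. The windows of Dlx1, Dlx2, Dlx3 and Dlx5 overlapped no other.

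RefSeq promoters (GRCm38.p6, the build of mm10, 250 bases before to 50 after the start) were matched for 2 of the 6 members, Dlx1 and Dlx2. They are shown because PRC2 in mammals is found at promoters rich in CG dinucleotides, and CG is in capitals. The Dlx6os1 promoter, from the noncoding RNA between Dlx6 and Dlx5, is shown beside them because its window had H3K27me3 near that of Dlx5 and Dlx6 with lower SUZ12 and H3K4me3 CPM; there, TAATT or AATTA, the core letters that homeodomains recognise, is also in capitals. The 3 lie at chr2:71529195-71529494 (plus strand), chr2:71546705-71547004 (minus strand) and chr6:6869484-6869783 (minus strand).
Dlx1: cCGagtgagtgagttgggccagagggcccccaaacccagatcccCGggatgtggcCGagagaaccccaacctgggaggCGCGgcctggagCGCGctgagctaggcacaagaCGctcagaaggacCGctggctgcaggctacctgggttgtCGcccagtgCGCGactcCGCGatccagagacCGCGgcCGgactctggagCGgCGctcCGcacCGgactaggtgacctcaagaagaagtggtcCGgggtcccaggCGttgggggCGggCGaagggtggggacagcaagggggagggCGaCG
Dlx2: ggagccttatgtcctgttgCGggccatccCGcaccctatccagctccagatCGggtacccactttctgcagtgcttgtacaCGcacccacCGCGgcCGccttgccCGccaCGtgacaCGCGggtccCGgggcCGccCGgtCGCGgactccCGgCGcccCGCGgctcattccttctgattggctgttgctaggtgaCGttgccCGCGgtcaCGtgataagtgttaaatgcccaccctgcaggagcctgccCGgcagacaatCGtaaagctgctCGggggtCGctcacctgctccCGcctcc
Dlx6os1: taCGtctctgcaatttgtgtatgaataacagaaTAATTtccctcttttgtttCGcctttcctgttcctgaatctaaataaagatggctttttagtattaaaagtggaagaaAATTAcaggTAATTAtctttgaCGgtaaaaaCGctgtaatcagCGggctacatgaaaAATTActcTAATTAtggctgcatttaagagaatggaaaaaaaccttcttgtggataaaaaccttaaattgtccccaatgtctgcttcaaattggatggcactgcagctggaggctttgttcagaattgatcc
The Dlx1 promoter held 27 CG with a GC content of 69.3%, and 15.5% of 32851 promoters of this length held at least as many. The Dlx2 promoter held 29 CG with 66.3% GC, a number reached by 12.9% of promoters. The Dlx6os1 promoter held 5 CG with 35.7% GC, a number reached by 62.0% of promoters, against a median of 7 CG over all promoters. It also held 7 matches of TAATT on either strand, overlapping matches counted separately, a number reached by 0.1% of promoters, while 27% held any match. Dlx1 and Dlx2 held no match in these promoter sequences, and the rest of their windows was not searched. The matched promoters of Dlx6os2 and Dlx4os held 1 and 0. The GC content of the Dlx6os1 promoter was below the median of all promoters (52.7%), and its matches were not compared with promoters of like GC content.

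Depth was the total count over all windows of a library and ran from 298458 (IgG in ESC) to 8425292 (H3K4me3 in NPC), so 3 counts were worth 10.05 to 0.356 CPM (counts per 1000000 counts of the library). All levels are CPM, and because all windows have 1 length they can be set beside each other between genes. The cell labels were checked by H3K4me3: 7 of 8 ESC marker genes fell and 8 of 8 neural progenitor markers rose in NPC. Among smaller marker lists of 4 genes, neuronal genes had 4 rises, hindbrain and spinal cord genes 3 rises and 1 fall, forebrain genes 2 rises and 2 falls, and neural crest genes 1 rise and 3 falls. Mesoderm and endoderm lists each had 1 rise and 2 falls. Of all windows, 26.7% rose and 29.2% fell in H3K4me3, so a count of 1 in a list of 4 lies near these shares. The JARID2 pair of NPC agreed within sampling noise (a chi-square of 0.998 for each degree of freedom, 23468 windows), so they were summed and counted as 1 sample. The MTF2 and H3K27me3 libraries of NPC stood apart from each other: the top 1% of windows held 3.05% and 7.02% of MTF2 counts, and 11.04% and 19.61% of H3K27me3 counts, in replicates 1 and 2. This share also differed between cell types. In ESC it was 7.2% and 6.64% for H3K27me3 and 10.54% and 8.44% for MTF2. For SUZ12 it was 10.52% and 9.24% in ESC and 4.94% and 5.05% in NPC. Whether these shifts account for changes at the Dlx windows was not tested.

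In both cell types the Dlx windows carried H3K27me3, and in ESC a number of them also carried SUZ12 and MTF2 above IgG. H3K4me3 was called above IgG at none of them, though in ESC its level was at percentile 53.8 to 65.6 of all windows. A window that was not called may still carry the mark. IgG gave 40.2 to 80.4 CPM at the 6 windows in ESC and 35.9 to 83.85 CPM in NPC. It was highest at Dlx3, with 80.4 CPM in ESC (95% exact binomial interval 51.5 to 119.7, counting error only) and 83.85 CPM in NPC (63.3 to 108.9). The Dlx3 window stood at percentile 97.6 (ESC) and 99.3 (NPC) of all windows in the IgG libraries, and Dlx4 at percentile 94.0 and 90.6. The ratios to IgG of this pair were therefore taken over a higher background than those of the other members.

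Enrichment was called in an edgeR fit of all libraries where the adjusted p was below 0.05 and the log2 ratio to IgG reached 1, a rule met by H3K27me3 at 22.2% of windows in ESC and 15% in NPC. H3K27me3 passed at 6 of 6 Dlx windows in ESC, from 2.16 ± 0.78 (log2 ± SE) at Dlx3 to 2.99 ± 0.87 at Dlx6. It passed at 6 of 6 in NPC, from 3.89 ± 0.80 at Dlx3 to 5.11 ± 0.89 at Dlx1. In a fit of H3K27me3 with IgG alone 0 of 6 passed in either cell type. SUZ12 passed in ESC at Dlx1 (3.03 ± 0.84, adjusted p = 0.0216), Dlx2 (3.43 ± 0.82, adjusted p = 0.009) and Dlx6 (3.51 ± 0.88, adjusted p = 0.0121), 3 of 6 against 5.21% of windows. MTF2 passed in ESC at the same 3 genes, with 2.93, 3.39 and 3.35, against 8.55% of windows. Dlx3, Dlx4 and Dlx5 had SUZ12 ratios of 2.16, 2.24 and 2.02 and did not pass. SUZ12 passed at 6 of 6 in ESC when the IgG libraries of both cell types were used together, with scaling by library totals, or in a fit with IgG alone; MTF2 passed at 6, 6 and 0.

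For SUZ12 and MTF2 in NPC, and for JARID2 in both cell types, edgeR called 0 windows of 23896 above IgG (percent called 0). At an unadjusted p below 0.05 with the same fold, SUZ12 in NPC had 466 windows with 4 Dlx members among them, and MTF2 in NPC had 616 with 5. JARID2 had 529 windows in ESC and 106 in NPC, with 0 Dlx members. A fit with IgG alone called SUZ12 at 5 of 6 Dlx windows in NPC and JARID2 at 3 of 6 in ESC, and scaling by library totals called SUZ12 at 4 and MTF2 at 3 in NPC. H3K4me3 was called at 35.9% of windows in ESC and 38.9% in NPC but at 0 of 6 Dlx windows, also at an unadjusted p below 0.05. Its ratios to IgG there were -0.33 (Dlx4) to 1.00 (Dlx2) in ESC and -0.27 (Dlx3) to 0.77 (Dlx1) in NPC.

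**Figure D1:**
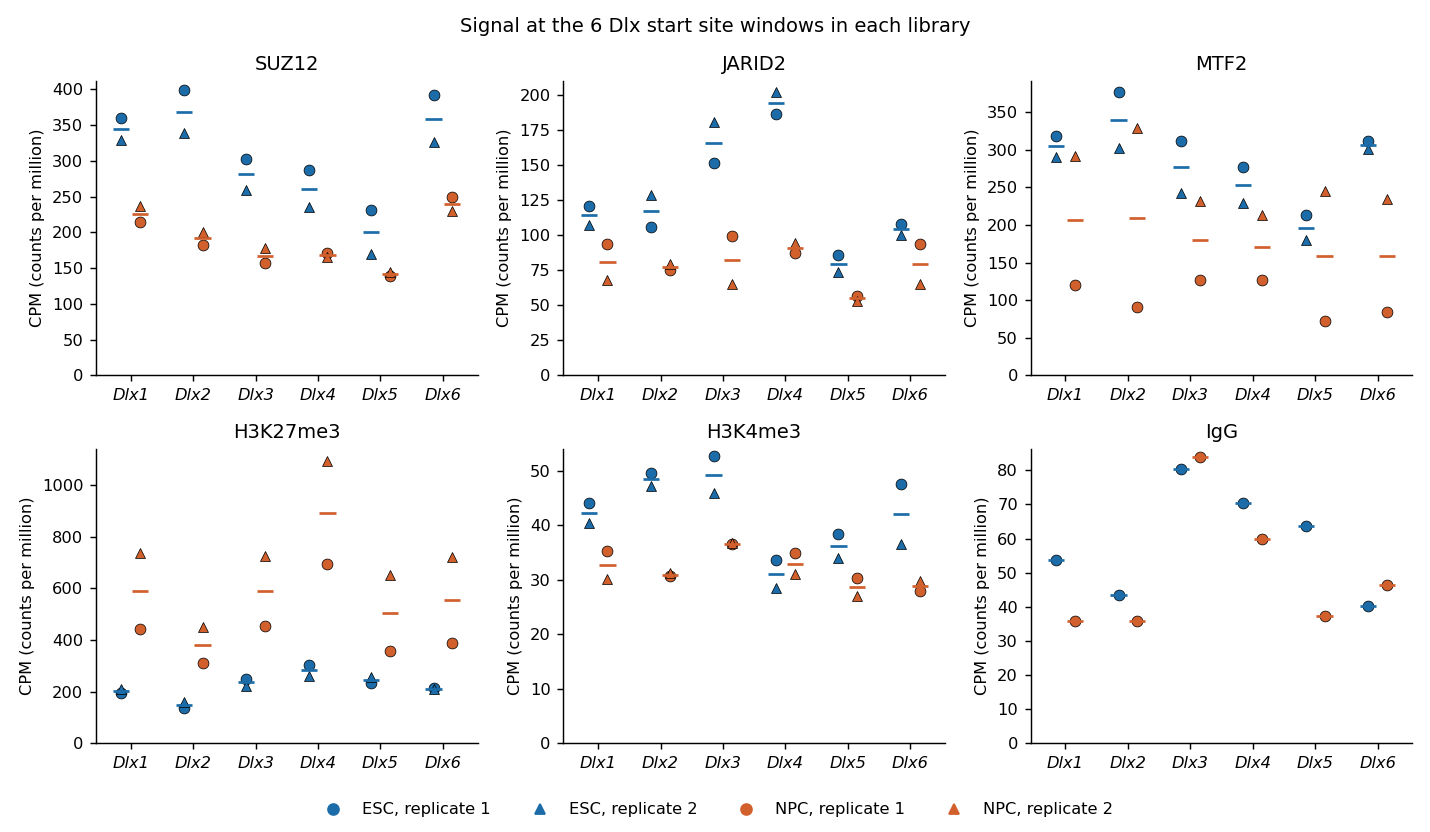
Level at the start site windows of Dlx1 to Dlx6 (x axis) in CPM (y axis, each panel on its own scale) for each antibody and IgG; points are single libraries, circles replicate 1 and triangles replicate 2, and short lines are the mean of the libraries shown. SUZ12 points of NPC lie below those of ESC at all 6 genes, H3K27me3 points of NPC lie above, and the MTF2 points of NPC lie far apart.

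SUZ12, the PRC2 core subunit, fell at all 6 Dlx genes from ESC to NPC, by 0.78 to 1.21 on the log2 scale. As log2 ratios to IgG, SUZ12 at Dlx1 to Dlx6 was 3.03, 3.43, 2.16, 2.24, 2.02 and 3.51 in ESC. In NPC these ratios were 2.73, 2.49, 1.08, 1.57, 2.01 and 2.45, lower at each gene but nearly unchanged at Dlx5. Each ratio rests on 1 IgG library per cell type. At Dlx2, SUZ12 was 399 and 339 CPM in the ESC replicates and 182 and 201 in the NPC replicates, a change of -1.21 ± 0.21 (edgeR adjusted p = 5.58e-07). Its partner Dlx1 had 360.3 and 329 CPM in ESC and 215 and 236 in NPC (-0.87 ± 0.21, adjusted p = 0.000502). In both genes each NPC library was below each ESC library. Dlx3 had 303 and 259 CPM against 157 and 178 (-1.01 ± 0.21, adjusted p = 4.5e-05). Dlx4 had 287 and 235 CPM against 172 and 165 (-0.90 ± 0.21, adjusted p = 0.000372). The ESC and NPC values of this pair did not overlap either. Dlx6 had 392 and 326 CPM against 249 and 229.6 (-0.85 ± 0.21, adjusted p = 0.000757). Dlx5 had 232 and 170.3 CPM against 139.5 and 145, the lowest SUZ12 level of the 6 in both cell types and the smallest change (-0.78 ± 0.22, adjusted p = 0.00328).

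These 6 falls compare with 13.1% of tested windows that fell and 2.97% that rose. The values did not overlap, with NPC lower, at 6 of 6 Dlx windows and 16.3% of all windows, while 43% had NPC higher without overlap. The median change was -0.88 over the Dlx windows and 0.07 over all windows. Over the 1246 windows with SUZ12 above IgG in ESC, a list that rests on the same ESC libraries and holds Dlx1, Dlx2 and Dlx6, it was -1.33, and 1160 of them fell. By rank, a measure near its upper end here, the Dlx windows were at SUZ12 percentile 98.3 to 99.5 in ESC and 99.2 to 99.8 in NPC. The calls were lost with a minimum count of 30, where scaling rested on 3696 windows with more signal: 0 of 6 passed and the changes were -0.37 (Dlx2) to 0.05 (Dlx5). They were also lost in 1 fit over all libraries (0 of 6, changes -1.23 to -0.80), and 3 of 6 passed without NPC replicate 1 (Dlx2, Dlx3 and Dlx4) or without NPC replicate 2 (Dlx1, Dlx2 and Dlx3).

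JARID2, which recruits PRC2 in 1 of its forms, had its highest CPM in ESC at the Dlx3 and Dlx4 pair and fell there. These are also the windows with the most IgG, and as a log2 ratio to IgG in ESC JARID2 was 1.08 at Dlx3 and 1.5 at Dlx4, against 1.12 at Dlx1, 1.46 at Dlx2, 0.36 at Dlx5 and 1.4 at Dlx6, none of them called. Dlx4 had 186 and 202 CPM in ESC and 87.3 and 94.2 in the 2 NPC libraries, 90.1 when summed (-1.13 ± 0.20, adjusted p = 4.5e-06). Dlx3 had 151 and 181 CPM in ESC and 99.5 and 64.8 in NPC, 85.3 when summed (-0.98 ± 0.21, adjusted p = 0.000861). Every ESC library was above every NPC library at both genes. The other members had lower levels in ESC, from 73.75 CPM in an ESC library at Dlx5 to 128 at Dlx2, and their changes did not pass: -0.48 ± 0.24 at Dlx1, -0.63 ± 0.25 at Dlx2, -0.55 ± 0.30 at Dlx5 and -0.37 ± 0.25 at Dlx6. Of all windows 0.769% fell and 0.0839% rose, and values did not overlap with NPC lower at 6 Dlx windows and 29.5% of all windows (34.4% with NPC higher). In NPC the JARID2 levels of the 6 genes lay between 55.3 (Dlx5) and 90.1 CPM (Dlx4), and the library ranges of Dlx4, Dlx3, Dlx1, Dlx6 and Dlx2 overlapped from each to the next. Neither fall passed with DESeq2 (adjusted p = 0.0582 at Dlx4 and 0.2 at Dlx3), in 1 fit over all libraries, or without either ESC replicate, and Dlx3 did not pass without NPC replicate 2 (adjusted p = 0.168). With the replicate number as a block and the NPC libraries kept apart, Dlx4 passed (adjusted p = 0.0182) and Dlx3 did not (0.0658).

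By mean CPM in ESC, MTF2, the accessory subunit of the other main PRC2 form, ranked the 6 genes in the same order as SUZ12. Its ESC library ranges overlapped from each to the next at Dlx2, Dlx6, Dlx1, Dlx3 and Dlx4, and only Dlx5 lay apart. MTF2 also differed widely between the NPC libraries. Dlx2 had 376 and 303 CPM in ESC and 91.0 and 329 in NPC (-0.95 ± 0.93). Dlx1 had 318 and 290.3 CPM against 121 and 292 (-0.82 ± 0.87). NPC replicate 2 stood within or near the ESC range and replicate 1 far below it. Dlx6 had 311 and 301 CPM against 84.2 and 234, with the lowest estimate of the 6 (-1.19 ± 0.83, adjusted p = 0.345). Dlx5 had 213 and 179.6 CPM against 72.8 and 246 (-0.56 ± 0.66, adjusted p = 0.613). Dlx3 (311 and 242 against 127 and 232 CPM) and Dlx4 (278 and 229.7 against 127 and 213 CPM) lay between them. In edgeR 0 of 6 passed, 0 at an unadjusted p below 0.05 and 0 with DESeq2, while 8.89% of windows fell and 3.28% rose. NPC was lower without overlap at Dlx3, Dlx4 and Dlx6, 3 of 6 against 16.6% of windows (44.3% with NPC higher). With 1 NPC library left out at a time, the changes were -0.59 to 0.12 without replicate 1 and -2.25 to -1.35 without replicate 2. The difference between the MTF2 and JARID2 changes passed at 0 of 6 genes in edgeR (percent called 0.206 above 0 and 1.03 below) and ranged from -0.88 ± 0.98 at Dlx6 to 0.22 ± 1.00 at Dlx4.

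H3K27me3, the mark that PRC2 places, was higher in every NPC library than in every ESC library at all 6 genes, the opposite order to SUZ12. Dlx4 had the highest level of the family, 304 and 262.5 CPM in ESC and 693 and 1092 in NPC (1.94 ± 1.39, 95% interval -0.78 to 4.67). Dlx1 had 194 and 210.0 CPM against 442 and 735 (1.85 ± 1.14). Dlx2 had the lowest level, 137 and 159 CPM against 311 and 449.7 (1.65 ± 0.93). In each gene NPC replicate 2 was well above replicate 1, so the ranges of ESC and NPC were apart but the NPC spread was wide. Dlx3 had 251 and 222 CPM against 456 and 726 (1.61 ± 1.16), and Dlx6 had 212 and 208 against 387 and 721 (1.71 ± 1.12). Dlx5 had 233 and 256 CPM against 359 and 651 (1.36 ± 1.09).

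None of these changes passed in edgeR (0 of 6, and 0 at an unadjusted p below 0.05), with adjusted p from 0.133 (Dlx2) to 0.302 (Dlx5), although 22.9% of windows rose and 23.5% fell. Values did not overlap, with NPC higher, at 6 of 6 Dlx windows and 30.1% of all windows (34.5% with NPC lower). DESeq2 passed 5 of 6, all but Dlx5, with changes of 1.31 to 1.89. Scaling by library totals also passed 5, and a minimum count of 30 and 1 fit over all libraries each passed 6. Without NPC replicate 1, 6 passed with changes of 1.93 to 2.45; without NPC replicate 2, 3 passed (Dlx1, Dlx2 and Dlx4) with changes of 0.30 to 1.03 over the 6 genes. The estimate was above 0 at all 6 genes under each of these settings, and its size rested on which NPC library was used.

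The change in H3K27me3 was set against that in SUZ12 by an interaction term over the 8 libraries of both. It passed at 5 of 6 genes, against 16.7% of windows above 0 and 14.2% below. The difference was 2.86 ± 0.97 at Dlx2 (adjusted p = 0.0169), 2.84 ± 1.16 at Dlx4 (0.0467), 2.72 ± 1.06 at Dlx1 (0.0373), 2.62 ± 1.05 at Dlx3 (0.0427) and 2.56 ± 1.06 at Dlx6 (0.0494). Dlx5 had 2.13 ± 1.00 and did not pass (adjusted p = 0.0847). With the replicate number as a block 0 of 6 passed, with differences of 1.89 to 2.71. Leaving out either H3K27me3 library of ESC or any of the SUZ12 libraries also gave 0 of 6, with differences of 1.86 to 3.04, and leaving out either H3K27me3 library of NPC gave 6 of 6. The size rested on that library: the differences were 2.75 to 3.39 without NPC replicate 1 and 1.11 to 2.07 without NPC replicate 2. Scaling by library totals and 1 fit over all libraries also passed 6.

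**Figure D2:**
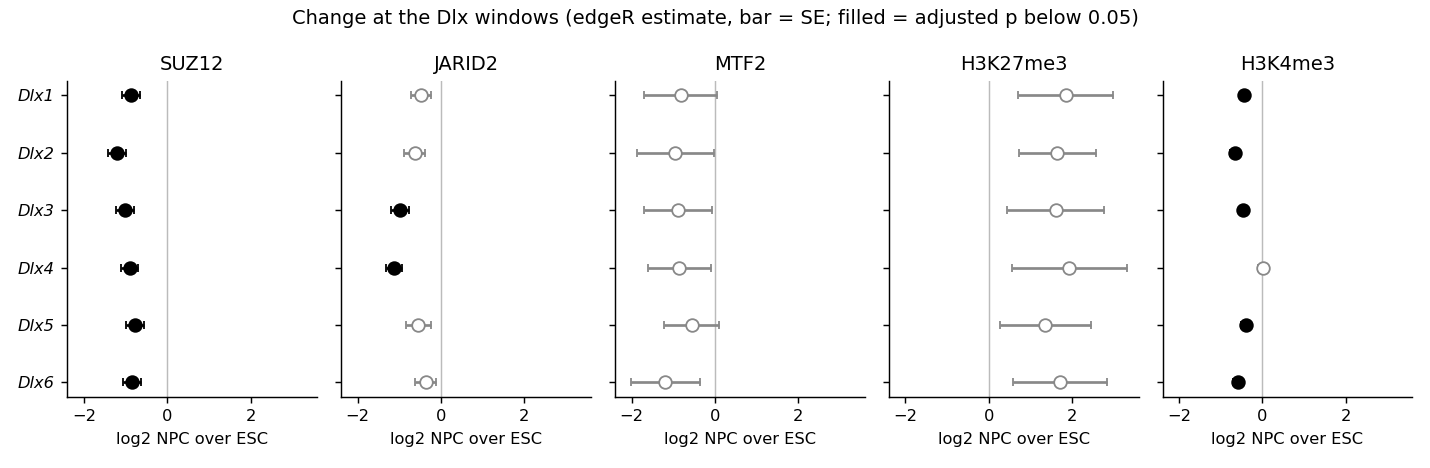
Change from ESC to NPC (x axis, log2 NPC over ESC) at each Dlx gene (y axis), 1 panel per antibody; points are edgeR estimates, bars are 1 SE, and filled points passed at an adjusted p below 0.05. All 6 SUZ12 points lie below 0 and are filled, and the 6 H3K27me3 points lie above 0, are open and have wide bars.

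H3K4me3 at the Dlx genes was in the middle of the range of all windows, at percentile 53.8 to 65.6 in ESC and 52.7 to 56.6 in NPC. It fell at 5 of 6 genes by 0.40 to 0.66, against 29.2% of windows that fell and 26.7% that rose. Dlx2 had 49.5 and 47.2 CPM in ESC and 30.6 and 31.2 in NPC (-0.66 ± 0.11, adjusted p = 8.52e-09). Dlx6 had 47.5 and 36.45 CPM against 27.9 and 29.8 (-0.58 ± 0.12, adjusted p = 1.95e-06). Every NPC library lay below every ESC library at both. Dlx3 had 52.7 and 45.8 CPM against 36.5 and 36.8 (-0.46 ± 0.11), and Dlx1 had 44.0 and 40.3 against 35.2 and 30.15 (-0.44 ± 0.11). Dlx5 had 38.3 and 34.0 CPM against 30.3 and 27.1 (-0.40 ± 0.12). Dlx4 stood apart, with 33.5 and 28.4 CPM in ESC and 34.9 and 31.0 in NPC, values that overlapped (0.01 ± 0.12, adjusted p = 0.945). NPC was lower without overlap at the other 5 members and at 32% of all windows (36.3% with NPC higher). IgG at these windows was 40.2 to 80.4 CPM in ESC. There, before scaling between libraries, the mean H3K4me3 CPM was above the IgG CPM at Dlx2 and Dlx6 only. In the fit over all libraries, the log2 ratios to IgG at Dlx1 to Dlx6 were 0.51, 1.00, 0.15, -0.33, 0.04 and 0.92 in ESC. In NPC they were 0.77, 0.71, -0.27, 0.05, 0.53 and 0.24, and none was called. Relative to IgG, H3K4me3 was thus higher in NPC at Dlx1, Dlx4 and Dlx5 and lower at Dlx2, Dlx3 and Dlx6. The 5 falls became 2 with DESeq2 (Dlx2 and Dlx6) and 0 with scaling on background windows or in 1 fit over all libraries. They became 3 without ESC replicate 1 (Dlx1, Dlx2 and Dlx3) and 3 without NPC replicate 2 (Dlx2, Dlx3 and Dlx6).

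Partners of a linked pair were compared as the log2 ratio of their counts in the same library, which needs no scaling between libraries. With 2 libraries per cell type, the exact two-sided permutation test cannot go below p = 0.333, so no change in a ratio could pass. Dlx5 carried less SUZ12 than Dlx6 in all 4 libraries, with ratios of -0.75 and -0.92 in ESC and -0.82 and -0.65 in NPC, while the IgG ratio of this pair was 0.58 in ESC and -0.29 in NPC. The SUZ12 ratio of this pair overlapped between the cell types. Its H3K27me3 ratio was 0.13 and 0.29 in ESC and -0.11 and -0.15 in NPC, so Dlx5 had the higher count in ESC and Dlx6 in NPC, as in the IgG libraries. As log2 ratios to IgG the order was the opposite, 2.54 at Dlx5 and 2.99 at Dlx6 in ESC, and 4.84 and 4.67 in NPC.

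Dlx1 carried more H3K27me3 than Dlx2 in all 4 libraries, with ratios of 0.50 and 0.39 in ESC and 0.50 and 0.71 in NPC. The SUZ12 ratio of this pair was -0.15 and -0.04 in ESC and 0.23 in each NPC replicate, and the SUZ12 CPM ranges of the partners overlapped in ESC. Dlx3 carried less H3K27me3 than Dlx4, with ratios of -0.28 and -0.24 in ESC and -0.60 and -0.59 in NPC. The H3K4me3 ratio of Dlx3 to Dlx4 was 0.65 and 0.68 in ESC and 0.06 and 0.25 in NPC. All H3K4me3 ratios of ESC were above those of NPC in this pair, since Dlx3 fell and the change at Dlx4 was near 0.

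**Figure D3:**
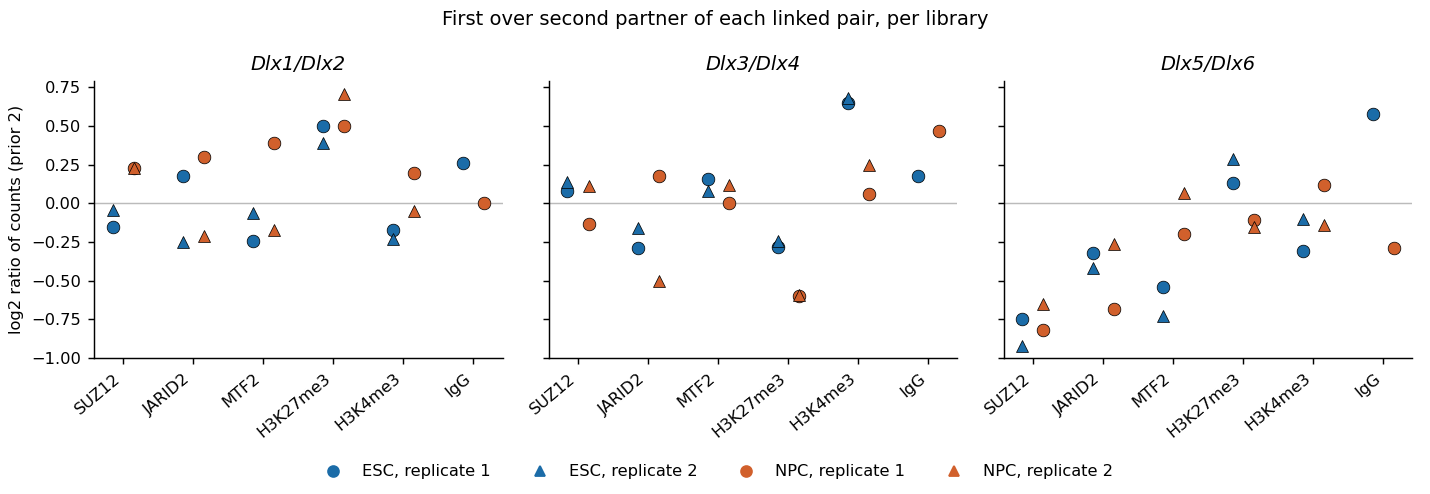
Log2 ratio of counts between the partners of each linked pair (y axis; 2 counts were added to each) in every library, by antibody and IgG (x axis); circles are replicate 1 and triangles replicate 2. In the Dlx5/Dlx6 panel all SUZ12 points lie below 0, and in the Dlx3/Dlx4 panel the H3K4me3 points of ESC lie near 0.66 and those of NPC near 0.15.

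The 4 noncoding RNA windows at these loci had higher H3K27me3 in every NPC library than in every ESC library, as the Dlx windows and 30.1% of all windows did. None of the 4 changes passed in edgeR, with adjusted p from 0.216 (Dlx6os2) to 0.312 (Dlx6os1). Dlx4os and Dlx6os2, which overlap Dlx4 and Dlx6, had SUZ12 of 303 ± 48.5 and 289 ± 33.8 CPM in ESC and H3K4me3 of 36.6 ± 4.56 and 35.2 ± 5.68 CPM, within the range of the Dlx genes. Dlx1as, the antisense RNA between Dlx1 and Dlx2, had H3K27me3 of 258 ± 10.6 CPM in ESC and 719 ± 306 in NPC (mean ± SD, n = 2), above both of its neighbours. Its SUZ12 was 229.7 ± 4.97 and 164 ± 13.7 CPM, a fall of 0.73 on the log2 scale (adjusted p = 0.00562), and its H3K4me3 was 12.0 ± 0.62 and 8.18 ± 0.99 CPM. Dlx6os1, also known as Evf2 and made from a Dlx5/Dlx6 enhancer, had 242 ± 12.3 and 485 ± 189 CPM of H3K27me3. The H3K27me3 level of Dlx6os1 was close to that of Dlx5 and Dlx6, yet its SUZ12 was 84.75 ± 11.03 CPM in ESC and 57.1 ± 17.0 in NPC and its H3K4me3 3.30 ± 0.41 and 3.52 ± 0.22 CPM. SUZ12 fell at Dlx6os1 too (-0.80 ± 0.25, adjusted p = 0.0113). As a log2 ratio to IgG, which was 40.2 CPM in ESC and 25.45 CPM in NPC at this window, its SUZ12 was 1.41 in ESC and 1.24 in NPC, the latter close to that of Dlx3 (1.08). Dlx4os, which shares most of the Dlx4 window, had the strongest JARID2 fall of the Dlx loci (-1.25 ± 0.19, adjusted p = 3.49e-08).

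**Figure D4:**
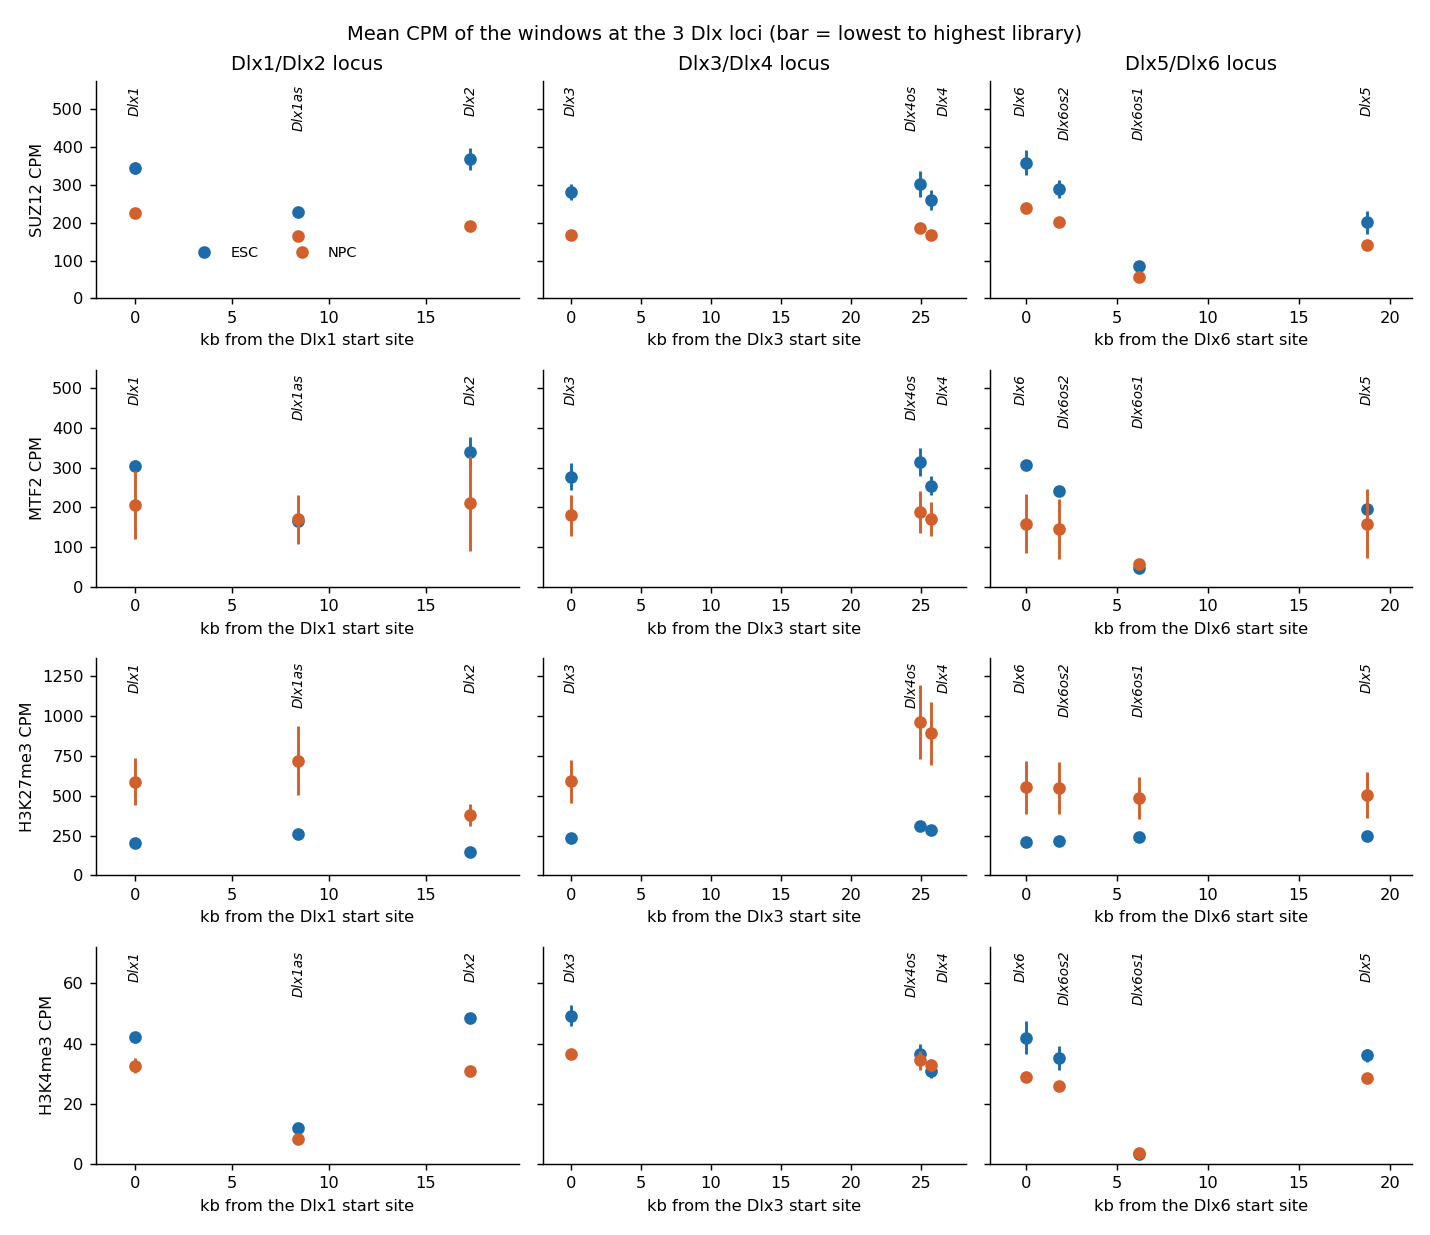
Mean CPM (y axis) at the Dlx and Dlx noncoding RNA windows of the 3 loci against the distance of their start sites in kb (x axis), in ESC and NPC; bars run from the lowest to the highest library. Dlx6os1 has H3K27me3 near that of Dlx5 and Dlx6 with SUZ12 below 100 CPM in both cell types, and H3K4me3 is low at Dlx1as and Dlx6os1.

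The 16 genes of a forebrain GABAergic list, which act before, with or after Dlx genes, lost SUZ12 in most cases: 14 fell and 0 rose, with a median of -1.17 (Dlx -0.88, all windows 0.07). Of all windows, 13.1% fell and 2.97% rose. In ESC, 12 of the 16 had SUZ12 above IgG. Of the 1246 windows with SUZ12 above IgG in ESC, 1160 fell (median -1.33), so such falls were not particular to this list. The lowest SUZ12 p of the list was that of Meis2 (-2.54 ± 0.24), a cofactor of homeodomain proteins. JARID2 fell at 5 of 16 (median -0.72, against 0.769% of all windows), led by Nkx2-1 (-1.73) and Meis2 (-1.80). MTF2 fell at 4 of 16 (median -1.05, against 8.89% of all windows), led by Pou3f4 (-2.25) and Meis2 (-2.66). H3K27me3 rose at 4 and fell at 2 of 16 (median 1.70), with the rises near the 22.9% and the falls below the 23.5% of all windows: it rose at Sp8 (2.04 ± 0.80) and fell at Meis2 (-1.25 ± 0.45). H3K4me3 rose at 5 and fell at 6 (median -0.12; 26.7% and 29.2% of all windows), with rises at Pou3f4 (2.56) and Meis2 (2.20). Of the 16, H3K4me3 was above IgG at 2 in ESC and 5 in NPC, below the 35.9% and 38.9% of all windows, and at 0 of 6 Dlx genes in each.

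In a list of 16 genes of the jaw, limb and ectoderm programmes, SUZ12 fell at 8 and rose at 0 (median -0.83). Of all windows, 13.1% fell and 2.97% rose. In ESC, 7 of the 16 had SUZ12 above IgG, and most windows of that kind fell, as given above. SUZ12 at Foxi3, an ectodermal and pharyngeal factor, fell by 1.5. JARID2 fell at 4 of 16 (median -0.39, against 0.769% of all windows), with Tfap2a at -1.40 and Foxi3 at -1.61. MTF2 passed at 0 of 15 tested genes (median -0.91), while 8.89% of all windows fell and 3.28% rose. H3K27me3 rose at 2 and fell at 3 of 16 (median 1.38), below the shares of all windows (22.9% and 23.5%), and the falls were led by Runx2 (-2.17), the bone factor, and Ednra (-1.90), the endothelin receptor upstream of Dlx5 and Dlx6 in the jaw. H3K4me3 fell at 9 and rose at 3 of 15 (median -0.61; 29.2% and 26.7% of all windows), with the lowest p at Hand1 (-2.28) and Gsc (-1.42), both transcription factor genes of the lower jaw.

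The windows most like each member were found by the Euclidean distance over the log2 ratios to IgG in 10 groups of antibody and cell type, which share their IgG libraries. Among the nearest were Hand2 (0.86) for Dlx1, Foxd1 (0.52) for Dlx2, Hes2 (0.86) for Dlx3, Pax3 (0.98) for Dlx4 and Shox2 (0.57) for Dlx6. The second were Sim1 (1.01) for Dlx1, Foxb2 (0.72) for Dlx2, Sox7 (0.91) for Dlx3, Tlx1 (1.00) for Dlx4, Foxf2 (0.87) for Dlx5 and Foxb2 (0.79) for Dlx6. By Pearson correlation in place of distance, 2 of the 12 windows were shared. Among the members, the closest were Dlx2 with Dlx6 (1.07) and Dlx1 with Dlx2 (1.08). The partners Dlx3 with Dlx4 were 1.6 apart and Dlx5 with Dlx6 2.5, farther than Dlx5 from Dlx4 (1.45). The largest distance was between Dlx1 and Dlx3 (3.11). A difference in IgG between 2 windows enters the ratios of all 5 antibodies, so these distances hold IgG differences too. IgG was 53.6 CPM in ESC and 35.9 in NPC at Dlx1, and 80.4 and 83.85 at Dlx3. At Dlx5 it was 63.7 and 37.4 CPM, and at Dlx6 40.2 and 46.4. How much of each distance came from the antibody libraries was not tested.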

How the data were processed

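The authors deposited raw counts, whole numbers of reads per 5000 bp window around 1 RefSeq start site per gene, for 22 CUT&RUN libraries. Per the submitters' processing notes, Bowtie2 2.3.4.3, Picard 2.19 and mm10 were used; how reads were filtered, deduplicated and counted is not stated there. Drosophila spike-in DNA was added but its counts were not used, so a shift shared by every window went unmeasured. PCR copies of a read are not independent, and the exact binomial intervals of IgG levels cover counting error only. The interval of the H3K27me3 change at Dlx4 was taken from the SE of the edgeR fit.

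Here, NPC over ESC was tested per antibody with edgeR 4.0.16 (R 4.3.3; quasi-likelihood, TMM, filterByExpr with a minimum count of 10, Benjamini-Hochberg over all windows, threshold 0.05). Enrichment over IgG came from 1 fit of all libraries, in which the lone IgG library of a cell type was assumed to vary like the other groups. DESeq2 1.42.0, other scalings, other filters, a replicate block and left-out libraries were alternatives. Replicate numbers were read from the labels. The scripts were tested on simulated data. Symbols turned into dates (27) were restored from transcripts, and 5370 windows (21.9%) overlapped another.

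Named genes were the members, windows within 200 kb, the 2 genes with the lowest p that passed from each list for each antibody, and the 2 nearest profiles per member; some genes that this rule names are not reported here. The members and lists were chosen with earlier results of these data known.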

Additional observations from a re-analysis of the deposited data

Results flagged for a closer look

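At 5 Dlx genes the change from ESC to NPC differed between H3K27me3 and SUZ12 by the interaction test in edgeR. The difference (H3K27me3 minus SUZ12, log2) was 2.72 at Dlx1, 2.86 at Dlx2, 2.62 at Dlx3, 2.84 at Dlx4 and 2.56 at Dlx6. H3K27me3 and SUZ12 were each measured in 4 libraries. At every one of these genes all NPC libraries were above all ESC libraries for H3K27me3 and below them for SUZ12. Dlx5 had a difference of 2.13 and did not pass. The 5 calls had adjusted p of 0.0169 to 0.0494 in that test and were lost with the replicate number as a block. They also depended on single libraries, as given above. The differences were 2.75 to 3.39 without H3K27me3 NPC replicate 1 and 1.11 to 2.07 without NPC replicate 2. The share of counts in the top 1% of windows also moved from ESC to NPC, up for H3K27me3 and down for SUZ12.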

How the results depend on the processing

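Counts of Dlx windows called are given for the settings that moved them by over 1.5 times. Over IgG, SUZ12 in ESC went from 3 to 6 with both IgG libraries together, with library totals and in a fit with IgG only, and MTF2 in ESC to 6, 6 and 0. SUZ12 in NPC went from 0 to 4 with library totals and 5 in a fit with IgG only, MTF2 in NPC from 0 to 3 with library totals, JARID2 in ESC from 0 to 3 and H3K27me3 from 6 to 0 in both cell types in a fit with IgG only. For falls from ESC to NPC, SUZ12 went from 6 to 0 with a minimum count of 30 (Dlx5 turned to 0.05) and in 1 fit over all libraries. JARID2 went from 2 to 0 with DESeq2 and in 1 fit, and H3K4me3 from 5 to 2 with DESeq2 and 0 with background TMM and in 1 fit. For H3K27me3 rises, 0 became 5 with DESeq2 and library totals and 6 with a minimum count of 30 and in 1 fit. With 1 library left out, where the lone library was assumed to vary like the other group, the counts ran from 3 to 6 for SUZ12, 0 to 2 for JARID2, 0 to 6 for H3K27me3, 3 to 5 for H3K4me3 and 0 to 6 for the difference between H3K27me3 and SUZ12. The most similar windows shared 2 of 12 by Pearson correlation. A minimum count of 30 leaves fewer windows to test and to scale on. The cause of these moves was not tested for any setting.

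Over all windows, SUZ12 calls went from 3416 to 1744 with DESeq2, 1616 with a minimum count of 30, 1503 in 1 fit, and 2119 to 3003 with a library left out. JARID2 calls went from 193 to 62 with DESeq2, 92 over non-overlapping windows and 0 in 1 fit, with a range of 0 to 139 over left-out libraries. MTF2 calls went from 2540 to 1078 with DESeq2, 983 with a minimum count of 30 and 98 to 2626 with a library left out. H3K27me3 calls went from 10143 to 3589 with DESeq2, 6390 with library totals, 4530 with a minimum count of 30 and 3573 to 10378 with a library left out. H3K4me3 calls went from 11064 to 3157 with background TMM and 6545 in 1 fit. Scaling moved the median change of all windows for SUZ12 from 0.07 to 0.32 (library totals) and -0.17 (background TMM), with 2391 rises and 2031 falls, and 159 and 3845, against 630 and 2786; the Dlx median stayed below 0 (-0.63 and -1.12).

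Replicate numbers did not pair the samples: deviations of same-numbered libraries correlated at -0.21 to 0.01 across windows. With the replicate block MTF2 calls over all windows went from 2540 to 507, JARID2 from 193 to 125 (Dlx falls from 2 to 1, NPC libraries kept apart), and the H3K27me3 minus SUZ12 calls at Dlx from 5 to 0. The crossed pairing, chosen after seeing the data, gave MTF2 4086 calls and 1 Dlx fall.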

Other observations

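Among genes within 200 kb of the Dlx start sites, Samd14, near Dlx3 and Dlx4, lost SUZ12 (-1.44 ± 0.24), MTF2 (-1.51 ± 0.50) and H3K27me3 (-1.35 ± 0.57) and gained H3K4me3 (1.61 ± 0.10), all by edgeR. Over IgG its H3K27me3 was called in ESC (1.47) and its H3K4me3 in NPC (1.66), while its SUZ12 was called in neither. Itga3, an integrin subunit gene at the same locus, had a lower SUZ12 level in NPC (-1.05 ± 0.23), and was called over IgG for MTF2 in ESC (1.55) and for H3K27me3 in NPC (1.48). Platr26, a noncoding RNA gene near Dlx2, lost H3K4me3 (-3.78 ± 0.18), which was called over IgG in ESC (1.06) and not in NPC (-2.22). Hat1, a histone acetyltransferase gene near Dlx1, lost H3K4me3 (-0.89 ± 0.09), which was called over IgG in both cell types (2.55 in ESC and 1.32 in NPC). The H3K27me3 rises at Hat1 (2.35 ± 0.53) and Platr26 (1.36 ± 0.50) lay at or below the IgG level, with log2 ratios to IgG of -2.13 and -1.81 in ESC and -0.06 and 0.03 in NPC. The rises at Sgca in SUZ12 (0.86 ± 0.27) and H3K4me3 (1.31 ± 0.46) lay below the IgG level in both cell types, at -0.83 and -0.11 for SUZ12 and -3.70 and -2.43 for H3K4me3.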
